A study of Rattus norvegicus with 8 samples.

Results

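The comparison described here sets selenium water (SeW) against water restriction (WR) in the intestinal epithelium of the rat. It used 4 of the 8 arrays of the series, the 2 SeW and the 2 WR arrays, chosen by their labels alone. The other arrays came from rats given tap water (TW) and deep-sea water of hardness 1200 (DSW1200), 2 arrays each. They entered the quantile normalization and the estimate of the spread, and their values are given for comparison. Of 31099 probe sets, 20826 had a single gene symbol. They covered 14217 genes, of which the 9258 with the higher signals were tested.

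All rats were of the Wistar strain and 4 months old by the labels. SeW rats drank water with added selenium, given as sodium selenite in the methods, for 3 days, and WR rats had no water for 12 h. So the groups differed in selenium, in access to water and in the length of the treatment, and these cannot be told apart. TW rats drank for 3 days as well. According to the methods the cells were shaken loose from proximal small intestine after chelation of calcium, which yields epithelium with some lymphocytes and other cells of the mucosa. Neither the number of animals behind an array nor the hour of collection is given in the sources used here, so p-values measure the spread between these samples, which may be technical.

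The labelled tissue matched its markers. Villus enterocyte genes were bright on all 4 arrays, and their summed signal was 45570 and 42941 on the WR arrays and 56649 and 57740 on the SeW arrays. T cell and intraepithelial lymphocyte genes summed to 840 and 781 in WR and to 476 and 473 in SeW. Smooth muscle genes, 7 of 10 bright enough to test, were close to level at 530 and 574 in WR and 523 and 558 in SeW. In whole cell preparations, fewer cells of a type and less RNA per cell cannot be told apart. The SeW arrays were the brighter ones as deposited, with median signals of 11.1 and 10.6 against 9.0 and 8.0 in WR. Their ratio of 3' to 5' signal for β-actin, which rises as RNA degrades or is copied short, was lower at 13.6 and 10.9 against 21.1 and 24.8. These values moved with the groups throughout, and their part in the results was not tested except where stated.

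Enterocytes of the upper small intestine digest and absorb. Their apical brush border carries hydrolases and transporters, their basal side passes nutrients to the blood and lymph, and they are renewed from crypts every few days. Much of this machinery follows a daily rhythm set by the clock, a loop in which Bmal1 and Clock switch on their own repressors, the Per and Cry genes and the nuclear receptors Nr1d1 and Nr1d2. Dietary selenium enters as selenite or selenoamino acids and is built into selenoproteins, among them the glutathione peroxidases and thioredoxin reductases that remove peroxides and keep thiols reduced.

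Selenium water and water restriction differed in 114 of the 9258 genes, 1.23% of those tested, at an adjusted p under 0.05 in limma's moderated test. Of these, 52 genes rose in SeW (0.562%) and 62 fell (0.67%), and 78 of the 114 changed at least 2-fold. Among them, the steepest fall was that of Nfil3, a clock repressor, and the highest rise that of Cyp4b1, a cytochrome P450 of fatty acids and xenobiotics. Rises included genes of absorption and digestion such as Si, Apoa4, Slc23a2 and Cldn7, and falls included the granzymes Gzma and Gzmb, the complement genes C1qa and C1qc and the selenoprotein gene Gpx2. Without adjustment 16.5% of the tested genes had a p under 0.05. The median gene differed by -0.04 on the log2 scale, and the median standard error was 0.26.

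The number of calls depended on single arrays. When an array of WR was left out, 1 gene passed (replicate 1) or 2 (replicate 2), and 2 genes passed when either SeW array was. Ap2b1 kept its call in all 4 cases, and Slc23a2 and Nfil3 each in 1. Without TW replicate 1 or 2, 212 and 211 genes passed, and without either DSW1200 array 40. None of the 114 genes turned direction when any array was left out. That outcome was fixed in advance, since in all 114 the SeW and WR arrays did not overlap. With the β-actin ratio as a covariate no gene passed, 405 had an unadjusted p under 0.05 and the median standard error rose to 0.68. All 114 genes kept their direction there, but the log2 difference shrank by over 1.5 times in 33 of them and grew as much in 6. The covariate differences of single genes are given below for some of them only. The split between rises and falls depended on the scaling: it was 964 to 9 on the values as deposited and 29 to 8 with each array centred on its median. Under these scalings the median gene was at 0.52 and 0.17, against -0.04. Changes below are relative to the distribution of all genes, by quantile normalization.

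**Figure D1:**
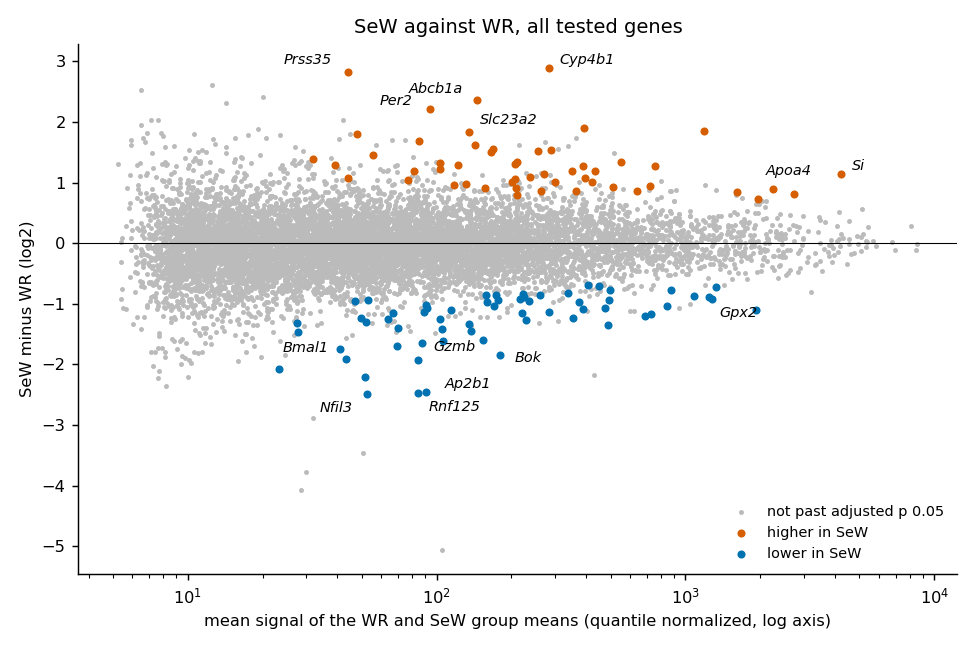
Each point is 1 of the 9258 tested genes, with the mean of the WR and SeW group means on a log axis across and SeW minus WR (log2) up. The 52 genes past the threshold and higher in SeW are orange, the 62 lower ones blue and the rest grey, and called genes are found from low to high signal.

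The sequences of 4 promoters are shown first, since the genes behind them are among the clock and redox genes described below. Each runs from 250 bases before to 50 after the start of the RefSeq gene in the GRCr8 build, on the strand of the gene, and capitals mark a motif. The motifs were TTATGNAA, the D-box bound by Dbp, Tef and Nfil3; NTAGGTCA, the element of ROR and Nr1d receptors; CACGTG, the E-box of Bmal1 and Clock; and TGACNNNGC, the antioxidant response element of Nrf2. Both strands were searched. NTAGGTCA was added after the values of the clock genes were known. Of 33469 such windows, 3.66% held the D-box, 2.62% the ROR element, 6.42% the E-box and 12.1% the antioxidant element.

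The Per2 window (chr9:99496944-99497243, minus strand) holds a D-box, the Bmal1 window (chr1:176766078-176766377, plus strand) a ROR element, the Klf15 window (chr4:124522765-124523064, plus strand) an E-box and the Gpx2 window (chr6:101229984-101230283, minus strand) an antioxidant element.
Per2: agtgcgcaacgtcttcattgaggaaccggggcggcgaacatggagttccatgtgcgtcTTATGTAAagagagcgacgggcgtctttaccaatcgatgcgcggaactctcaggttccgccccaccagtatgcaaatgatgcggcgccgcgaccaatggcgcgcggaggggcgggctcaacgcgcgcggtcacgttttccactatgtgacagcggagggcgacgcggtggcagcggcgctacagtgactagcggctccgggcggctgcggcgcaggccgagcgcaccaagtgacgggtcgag
Bmal1: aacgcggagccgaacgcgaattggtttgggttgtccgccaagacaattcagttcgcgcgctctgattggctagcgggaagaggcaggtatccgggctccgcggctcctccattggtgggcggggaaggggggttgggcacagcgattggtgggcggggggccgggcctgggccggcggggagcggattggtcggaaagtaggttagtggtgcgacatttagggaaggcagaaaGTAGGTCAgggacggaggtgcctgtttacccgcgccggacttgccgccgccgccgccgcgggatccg
Klf15: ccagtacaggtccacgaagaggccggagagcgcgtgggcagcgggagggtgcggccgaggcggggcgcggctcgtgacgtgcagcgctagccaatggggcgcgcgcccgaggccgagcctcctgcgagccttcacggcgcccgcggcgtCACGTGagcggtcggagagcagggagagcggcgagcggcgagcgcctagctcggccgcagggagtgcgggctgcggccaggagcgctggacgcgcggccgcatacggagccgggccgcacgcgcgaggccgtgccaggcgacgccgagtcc
Gpx2: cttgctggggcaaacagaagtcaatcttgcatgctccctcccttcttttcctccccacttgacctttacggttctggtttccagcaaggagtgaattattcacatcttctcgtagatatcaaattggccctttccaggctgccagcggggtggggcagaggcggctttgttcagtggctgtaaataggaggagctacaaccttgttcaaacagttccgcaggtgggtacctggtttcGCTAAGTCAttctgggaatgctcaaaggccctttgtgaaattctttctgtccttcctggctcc
A match describes the letters and is no evidence of binding. Among called genes with a window, an E-box stood in 3 of 43 that rose and 4 of 52 that fell, beside 10.1% of all tested genes. A D-box stood in 2 of the 43 and 0 of the 52, beside 1.72%, and an antioxidant element in 5 and 11, beside 15.6%. The ROR element stood in 0 and 1, beside 1.97%. The metal response element TGCNCNC, which is short and common, stood in 27 and 33, beside 61.8%. The glucocorticoid response element was in none of them and in 5 of all windows.

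Genes of the circadian clock differed in both directions. Of 22 clock and clock-output genes measured, 16 were bright enough to test. Per2 and Nr1d2 rose, Bmal1 and Nfil3 fell, and 12 did not pass, so that 4 of 16 were called beside 1.23% of all genes. The median of the 16 was -0.02, close to that of all genes, since 8 lay above WR and 8 below.

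Bmal1 encodes the activator that pairs with Clock. Its signal was 62.7 and 61.9 on the WR arrays and 26.3 and 13.2 on the SeW arrays, and between 47.4 and 55.6 on the other 4 arrays. Both SeW arrays lay below all others. The fall was 3.34-fold (log2 -1.74, SE 0.30, adjusted p 0.0421), and the difference of Bmal1 was -0.53 with the β-actin covariate. Clock and Npas2, the partners of Bmal1, were lower on both SeW arrays than on both WR arrays, but neither passed. Clock was at 167 and 164 in WR and 117 and 91.3 in SeW (log2 -0.68, SE 0.22, adjusted p 0.163), but the mean over all its probe sets went the other way, at 0.29. A second Clock probe set was lower by 0.67, and the remaining ones were dim, at 3.09 and 1.49 in WR on average. Npas2 was at 597 and 564 in WR and 423 and 307 in SeW (log2 -0.69, SE 0.19, adjusted p 0.122).

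Nfil3 encodes a repressor that occupies the D-box. It was at 96.3 and 79.9 in WR and at 22.2 and 11 in SeW, a 5.61-fold fall (log2 -2.49, SE 0.31, adjusted p 0.0194). TW, at 90.2 and 90.7, and DSW1200, at 77.0 and 100, lay with WR, and SeW stood apart from all 6.

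Among the repressors of the loop, Per2 and Nr1d2 rose. Per1, Cry1 and Cry2 did not pass, at 0.25, -0.55 and -0.16 on the log2 scale, and in each the groups overlapped. Per2, which holds back Bmal1 and Clock, was at 35.9 and 30.2 in WR and at 128 and 182 in SeW, a 4.64-fold rise (log2 2.21, SE 0.40, adjusted p 0.0449). Its levels elsewhere were in between or alike, 54.4 and 92.8 in TW and 137 and 55.4 in DSW1200, so one DSW1200 array overlapped SeW. Nr1d2, a receptor that represses Bmal1 through the ROR element, was at 55.4 and 86.4 in WR and 180 and 248 in SeW, a 3.06-fold rise (log2 1.61, SE 0.32, adjusted p 0.0494). A second probe set was higher in SeW as well, by 1.88 on the log2 scale, and the last one was too dim in WR for a fold. With the β-actin covariate the difference of Nr1d2 was 0.75. The other 4 arrays lay between 30.3 and 55.8.

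A further 5 members are named because of their values, and were chosen after these were seen. Nr1d1, the relative of Nr1d2, was at 10.7 and 23.8 in WR and 53 and 80.5 in SeW (log2 2.03, SE 0.74, adjusted p 0.206). Tef, an activator at the D-box, was at 12.6 and 23.5 in WR and 32.1 and 55.6 in SeW (adjusted p 0.167). Usp2, a rhythmic deubiquitinase, was at 29.1 and 52.5 in WR and 55.3 and 142 in SeW (adjusted p 0.188). In each of these the groups did not overlap, and none passed the test.

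Dbp and Per3 were too dim on most arrays to be tested. Dbp, a D-box activator and a direct target of Bmal1, was at 4.52 and 0.487 in WR and at 56.0 and 178 in SeW. The other 4 arrays lay between 1.07 and 12.7. Per3 was at 1.54 and 1.46 in WR, at 20.8 and 51.7 in SeW and under 1 elsewhere. No fold is given, since the lower values lie in the noise of the array.

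**Figure D2:**
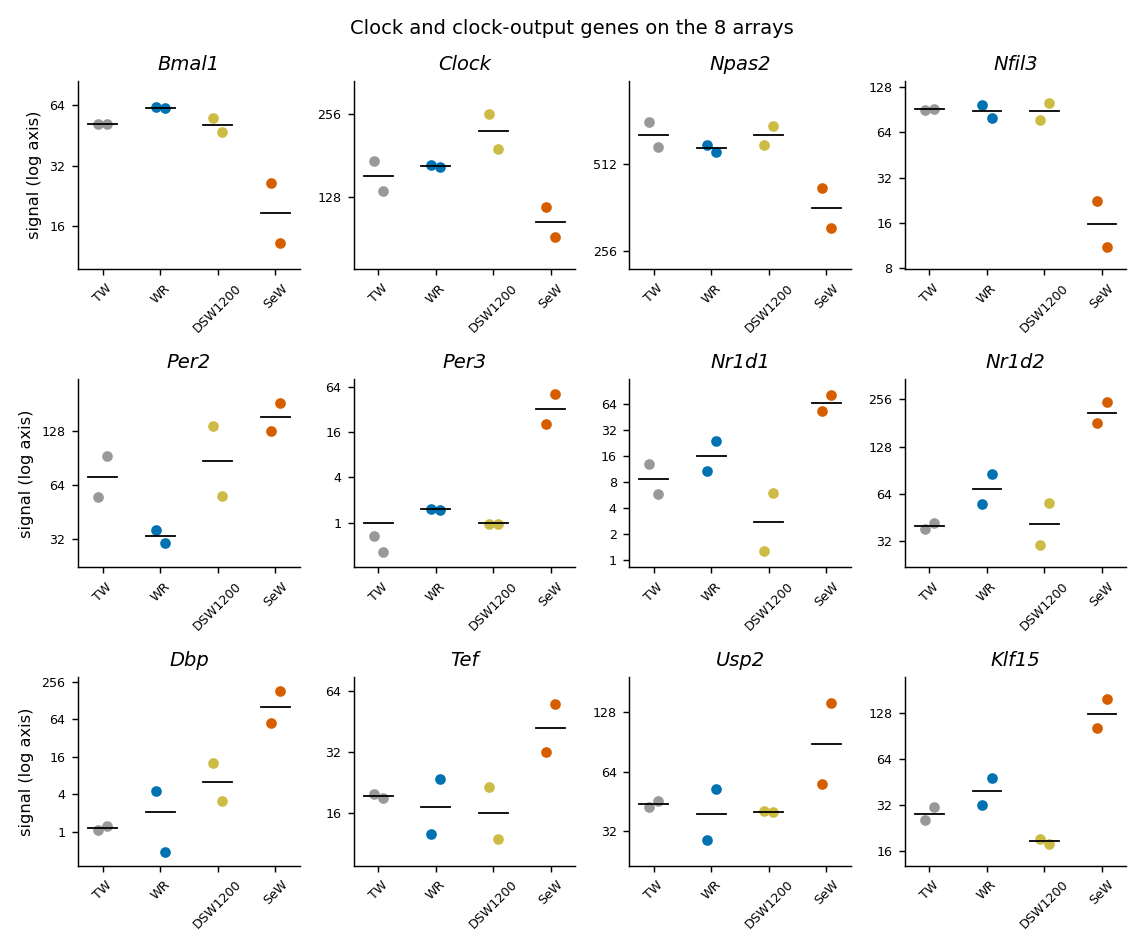
Signal of 12 clock and clock-output genes on a log axis, 1 point per array and the 2 arrays of each group side by side, with a bar at the mean of the log2 values (values under 1 taken as 1). Bmal1, Clock, Npas2 and Nfil3 are lowest on the SeW arrays, and Per3, Nr1d1, Nr1d2, Dbp, Tef, Usp2 and Klf15 are highest there, while Per2 is high in SeW and on 1 DSW1200 array (137).

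Klf15, a regulator of amino acid and glucose use in fasting that glucocorticoids and the clock both drive, was at 32.1 and 48.5 in WR and at 102 and 158 in SeW. It rose 3.22-fold (log2 1.69, SE 0.29, adjusted p 0.0421), and the TW arrays lay at 25.7 and 31.1. Its other probe sets were dim, at 4.1 and 6.72 in WR and at 1.21 and 7.48 in SeW on average. Klf15 was the 1 of 20 tested glucocorticoid-induced genes that rose, beside 0.562% of all tested genes. The median of that list was 0.08, with 11 members above WR and 9 below.

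Transporters were among the 15 largest rises. Abcb1a, the P-glycoprotein that pumps drugs back into the gut lumen, was at 36.8 and 60.0 in WR and at 235 and 250 in SeW, a 5.16-fold rise (log2 2.37, SE 0.34, adjusted p 0.0226). A second probe set rose alike, by 1.89 on the log2 scale. TW, at 33.2 and 23.9, lay with WR. Slc23a2, a sodium-dependent carrier of vitamin C, was at 48.0 and 71.3 in WR and 206 and 213 in SeW, a 3.59-fold rise (log2 1.84, SE 0.22, adjusted p 0.0194). Here the TW arrays, at 114 and 107, lay between the groups.

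Slc20a1, a phosphate carrier, was at 226 and 113 in WR and at 464 and 764 in SeW (log2 1.90, SE 0.32, adjusted p 0.0421), but its difference was 0.18 with the β-actin covariate. Slc6a20a, which takes up proline and other imino acids, was at 98.4 and 171 in WR and at 327 and 424 in SeW (log2 1.52, SE 0.30, adjusted p 0.0494). Slc5a12, a monocarboxylate carrier, was at 31.2 and 28.1 in WR and at 72.8 and 90.0 in SeW (log2 1.45, SE 0.27, adjusted p 0.0464), with DSW1200 at 69.5 and 46.4. In all of these the higher values stood on both SeW arrays. Slc13a2, the sodium-dependent citrate and succinate carrier, was named after its values were seen. It was at 270 and 258 in WR, 621 and 590 in SeW and between 255 and 316 elsewhere (log2 1.20, SE 0.15, adjusted p 0.0194).

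Other large rises had mixed roles. Cyp4b1 was at 84.5 and 44.1 in WR and at 288 and 711 in SeW, a 7.41-fold rise (log2 2.89, SE 0.46, adjusted p 0.0383), with TW at 108 and 223. The difference of Cyp4b1 was 0.33 with the β-actin covariate and between 2.24 and 3.54 when 1 array was left out. Prss35, a protease-like gene, was at 12.0 and 9.81 in WR and at 68.3 and 87.0 in SeW, 7.11-fold higher (log2 2.83, SE 0.47, adjusted p 0.0421). Sv2b, a vesicle glycoprotein, was at 603 and 408 in WR and at 2428 and 1322 in SeW, the brightest of the 15 largest rises (log2 1.85, SE 0.35). Its 2 other probe sets were dim. Capn13, a calpain, Mmd, a membrane protein of macrophage maturation, Tap2, which loads peptides for MHC class I, and the uncharacterised LOC102554372 completed the 15, with rises between 1.5 and 1.8 on the log2 scale. The difference of Mmd was 0.53 with the β-actin covariate. For Capn13 and Tap2 both TW arrays lay above both WR arrays. Tap2 was at 73.1 and 101 in WR, 253 and 236 in SeW and 148 and 188 in TW, and Capn13 at 104 and 69.3 in WR, 279 and 220 in SeW and 232 and 175 in TW.

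**Figure D3:**
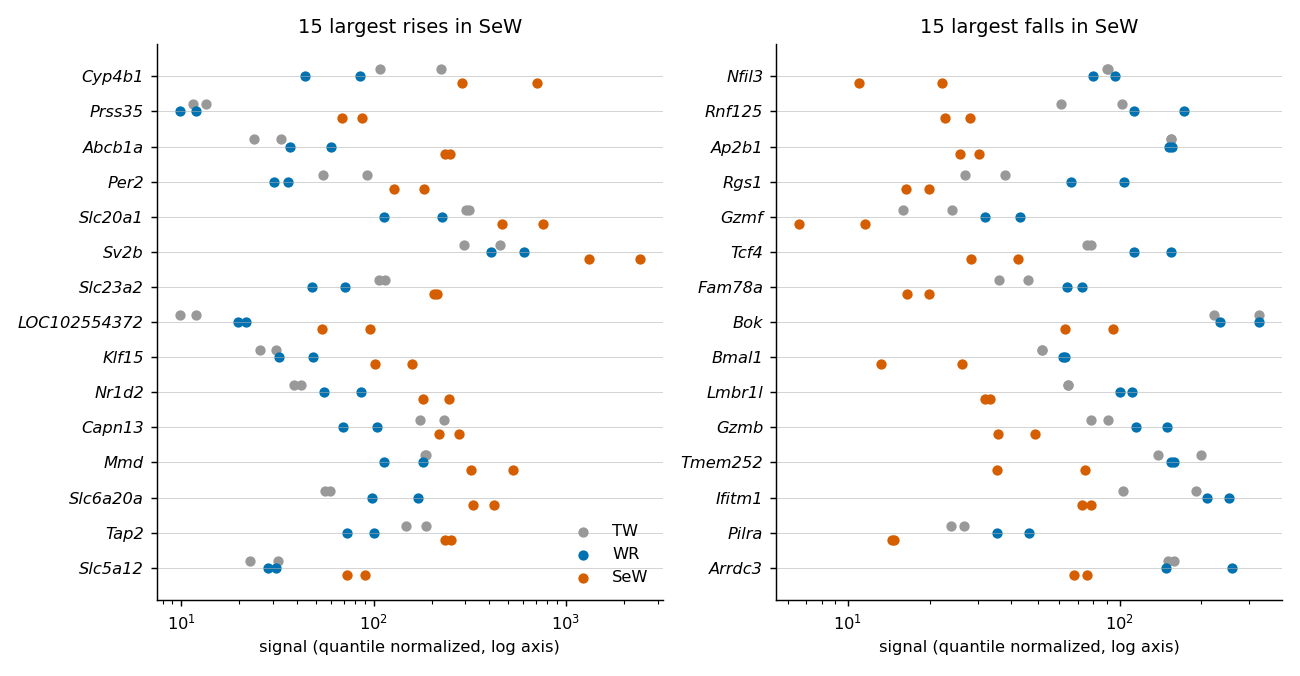
Signal on a log axis of the 15 largest rises (left) and the 15 largest falls (right) past adjusted p 0.05, with 2 points per group for TW, WR and SeW. The SeW points stand apart from the WR points in every row, as the choice of the genes required, and the TW points lie nearer to WR or to SeW depending on the gene.

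Digestive and absorptive genes tended to lie higher in SeW. In each of the 3 lists below 2 genes rose, beside 0.562% of all tested genes. Of 17 tested brush border genes, 16 lay above WR and 14 did so without overlap of the arrays, beside 24.2% of all genes; Si and Enpep rose, and the median was 0.42. Of 22 tested carriers of peptides, sugars, amino acids and vitamins, 18 lay above WR and 16 without overlap, Slc6a20a and Slc23a2 rose, and the median was 0.51. Of 22 fat absorption genes, 17 lay above and 13 without overlap, Apoa4 and Dgat2 rose, and the median was 0.26. The median of all tested genes was -0.04. The summed villus signal was higher and the lymphocyte signal lower on both SeW arrays, as given above. The villus list shares members with these 3 lists, so its sum is no separate measure. The part of cell composition in these differences was not tested. On the values as deposited and with median centring, the medians of the 3 lists exceeded that of all genes by 0.51, 0.64 and 0.13. The villus median exceeded it by 0.08 under both, against 0.33 after quantile normalization.

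Si, the sucrase-isomaltase that splits sucrose and starch fragments, was at 3113 and 2175 in WR and at 6297 and 5225 in SeW. It rose 2.2-fold (log2 1.14, SE 0.23), with an adjusted p just under 0.05. The other 4 arrays lay between 2046 and 3275. Enpep, the aminopeptidase that removes acidic residues, was at 1375 and 1555 in WR and at 2206 and 2686 in SeW, 1.66-fold higher (adjusted p 0.0494). Mme, the peptidase neprilysin, was at 1520 and 1824 in WR and at 2322 and 2713 in SeW and did not pass (adjusted p 0.116). Anpep, aminopeptidase N, was bright in both, at 4163 and 3758 and at 5142 and 5070 (log2 0.37, SE 0.12, adjusted p 0.163).

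Apoa4, an apolipoprotein of chylomicrons, was at 1901 and 1293 in WR and at 2733 and 3096 in SeW, 1.86-fold higher (log2 0.89, SE 0.18, adjusted p 0.0494). Dgat2, which completes triglycerides, was at 362 and 343 in WR and at 616 and 726 in SeW (log2 0.92, SE 0.16, adjusted p 0.0421), and a second probe set was higher by 0.94. The difference of Apoa4 was 0.33 with the β-actin covariate, and that of Dgat2 was 0.58. For both, the TW and DSW1200 arrays lay between WR and SeW. Abcg5, which returns plant sterols to the lumen, was at 35.7 and 25.2 in WR and at 73.3 and 130 in SeW (log2 1.70, SE 0.42) without passing (adjusted p 0.0925).

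Sugar carriers followed the same direction below the threshold. Slc2a2, the basolateral glucose carrier, was at 1204 and 1121 in WR and at 1951 and 2085 in SeW (log2 0.80, SE 0.18, adjusted p 0.0739), and 1 DSW1200 array reached 2102. The difference of Slc2a2 was 0.30 with the β-actin covariate. Slc2a5, the fructose carrier, named after its values were seen, was at 188 and 146 in WR and at 461 and 557 in SeW (log2 1.61, SE 0.52, adjusted p 0.165). Its DSW1200 arrays, at 101 and 426, show how far it varied within a group. Slc3a2, the shared chain of several amino acid exchangers, was at 470 and 519 in WR and at 751 and 1107 in SeW (adjusted p 0.0961).

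Cldn7, a claudin of the tight junction and of the lateral membrane, was at 352 and 541 in WR and at 1163 and 958 in SeW (log2 1.27, SE 0.21, adjusted p 0.04). TW, at 815 and 931, lay near SeW, and DSW1200, at 459 and 451, near WR. It was the 1 called gene among 20 tested junction genes, beside 1.23% of all tested genes, and the median of the 20 was 0.07. Aqp3, a basolateral water and glycerol channel, was at 204 and 220 in WR and at 500 and 328 in SeW and did not pass (log2 0.93, SE 0.26, adjusted p 0.12). All 5 tested aquaporins lay above WR, beside 4282 of all 9258 tested genes, and 4 more were too dim to test. In limma 1 of the 5 had an unadjusted p under 0.05, beside 16.5% of all genes.

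Genes of detoxification mostly lay above WR. Of 26 tested xenobiotic metabolism genes, 24 lay above WR and 17 did so without overlap (24.2% of all genes), but none passed in limma, 7 had an unadjusted p under 0.05 beside 16.5% of all genes, and the median was 0.38. Of 26 Nrf2 targets, 20 lay above and 15 without overlap, with a median of 0.41, and Gstm2 rose, beside 0.562% of all tested genes. Gstm2, a glutathione transferase, was at 48.5 and 51.4 in WR and at 92.3 and 114 in SeW (log2 1.04, SE 0.20, adjusted p 0.0464). Abcc2, the apical conjugate pump and a member of the same list, was at 132 and 83.0 in WR and at 281 and 364 in SeW (log2 1.61, SE 0.44, adjusted p 0.119), with TW spread between 116 and 353. Of 15 tested ABC transporters, Abcb1a alone rose, beside the same 0.562%, and the median was 0.37.

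Metabolic genes outside these lists that rose include 5 named after their values were seen. Aldh3a2, which oxidises fatty aldehydes, was at 259 and 249 in WR and at 514 and 564 in SeW (log2 1.08, SE 0.15, adjusted p 0.0194), with TW at 445 and 414. Hsd17b2, which inactivates estradiol and androgens, was at 1951 and 2027 in WR and at 3275 and 3680 in SeW (log2 0.80, SE 0.13, adjusted p 0.035). Adipor2, an adiponectin receptor, Mfsd2a, a carrier of lysophospholipids, and Slc25a10, the mitochondrial dicarboxylate carrier, rose by 1.01, 1.20 and 1.18 on the log2 scale. Adipor2 and Mfsd2a were each at 0.64 with the β-actin covariate. A second probe set of Slc25a10 was level, at 219 in WR and 226 in SeW on average, so that call rests on 1 probe set, and its difference was 0.22 with the β-actin covariate. Got1, an aspartate aminotransferase of the gluconeogenesis list, was at 200 and 198 in WR and at 386 and 413 in SeW. It was the 1 of 10 tested members that rose, beside 0.562% of all tested genes.

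Genes of immune cells lay lower in SeW. All 16 tested T cell and intraepithelial lymphocyte genes lay below WR, 14 of them without overlap (30% of all genes), and the median was -0.62. Of these, Gzma and Gzmb fell, beside 0.67% of all tested genes. Of 21 tested myeloid and antigen presentation genes, 17 lay below WR and 13 without overlap, and the median was -0.80. C1qa and C1qc fell in this list, beside the same 0.67%. Relative to all genes these medians stayed negative on the values as deposited, at -0.66 and -0.76. Of 12 fibroblast and matrix genes, 11 lay below WR and none passed in limma (0 with an unadjusted p under 0.05), with a median of -0.43. The sum of the lymphocyte genes was lower on both SeW arrays, as given above, and the sum of the myeloid genes lay between 7524 and 10651 on the 4 arrays with the groups overlapping.

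Gzmb, a killing protease of lymphocytes, was at 150 and 115 in WR and at 35.7 and 49.0 in SeW, a 3.14-fold fall (log2 -1.65, SE 0.22, adjusted p 0.0194). Its second probe set was lower by 1.86 on the log2 scale. Gzma was at 166 and 146 in WR and at 67.1 and 78.3 in SeW (log2 -1.10, SE 0.21, adjusted p 0.0464), but TW, at 76.4 and 104, lay closer to SeW than to WR. Gzmf, a further granzyme, was at 42.9 and 32 in WR and at 6.61 and 11.6 in SeW (log2 -2.08, SE 0.37, adjusted p 0.0425), with TW at 24.2 and 15.9. Granzyme genes are near copies of each other, so their probe sets may share signal. Ccl5, a chemokine of activated T cells, was at 92.9 and 79.2 in WR and at 43.3 and 54.4 in SeW and did not pass (adjusted p 0.114).

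C1qa and C1qc encode chains of the first complement component and come from macrophages. C1qa was at 153 and 136 in WR and at 54.5 and 68.1 in SeW (log2 -1.24, SE 0.25, adjusted p 0.0494). C1qc was at 73.9 and 65.8 in WR and at 26.6 and 33.4 in SeW (log2 -1.23, SE 0.22, adjusted p 0.0425). TW lay between the groups or within WR. Csf1r, the receptor of the macrophage growth factor, was at 48.3 and 49.5 in WR and at 15.8 and 24.2 in SeW (adjusted p 0.0805), and Fcer1g, an Fc receptor chain, at 120 and 111 and at 65.6 and 61.8 (adjusted p 0.0734). Lyz2, the lysozyme of macrophages and Paneth cells, was at 531 and 524 in WR and at 318 and 264 in SeW (adjusted p 0.115).

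Rgs1, which damps chemokine signals in lymphocytes, was at 66.5 and 104 in WR and at 16.4 and 19.9 in SeW, a 4.6-fold fall (log2 -2.20, SE 0.28, adjusted p 0.0194), with TW at 37.8 and 27.0. Ifitm1, an interferon-induced membrane protein, was at 209 and 253 in WR and at 73.0 and 78.8 in SeW (log2 -1.60, SE 0.27, adjusted p 0.0421). The difference of Ifitm1 was -0.77 with the β-actin covariate. Pilra, a receptor of myeloid cells, fell by 1.46. Plasma cell genes varied within the groups: Jchain, which joins secreted antibodies, was at 417 and 710 in WR but at 25.7 and 560 in SeW (adjusted p 0.547). Pancreatic genes varied in WR: Prss1, trypsinogen, was at 27.5 and 78.4 in WR and at 0.812 and 7.54 in SeW (adjusted p 0.118), too dim there for a fold.

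The other large falls had mixed roles. Ap2b1, a subunit of the clathrin adaptor, had the smallest p, at 156 and 152 in WR and 25.9 and 30.4 in SeW, a 5.48-fold fall (log2 -2.46, SE 0.18, adjusted p 0.000825). The other 4 arrays lay between 135 and 155. Its second probe set was dim and was not lower, at 5.38 in WR and 7.45 in SeW on average. Rnf125, a ubiquitin ligase that limits antiviral signalling, was at 173 and 113 in WR and at 22.7 and 28.1 in SeW (log2 -2.47, SE 0.37, adjusted p 0.0271). Tcf4, a basic helix-loop-helix factor of plasmacytoid dendritic and mesenchymal cells, was at 155 and 113 in WR and at 42.3 and 28.5 in SeW (log2 -1.93, SE 0.26), and a second probe set was lower by 0.61. With DSW1200 at 45.7 and 62.8, Tcf4 was highest in WR.

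Arrdc3, an arrestin-like regulator of receptors, Tmem252, a membrane protein, Fam78a, of unknown role, and Lmbr1l, a lipocalin receptor-like protein, fell by between 1.45 and 1.92 on the log2 scale. With the β-actin covariate Arrdc3 was at -0.32 and Tmem252 at -0.21. For Lmbr1l the 2 other probe sets were not lower, at 0.58 and 0.10, so that call rests on 1 probe set. Pdx1, the homeobox factor that sets duodenal identity, was at 286 and 318 in WR and at 116 and 159 in SeW, a 2.22-fold fall (log2 -1.15, SE 0.18, adjusted p 0.0383). TW, at 395 and 356, and DSW1200, at 440 and 444, were higher than both. It was the 1 of 9 tested duodenal genes that passed, beside 1.23% of all tested genes, and the median of the 9 was -0.23. Nuak2, an AMPK-related kinase named after its values were seen, was at 551 and 439 in WR and at 219 and 200 in SeW (log2 -1.23, SE 0.16, adjusted p 0.0194).

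Selenoprotein genes did not move together. Of 22 measured, 18 were tested, 10 lay above WR and 8 below, and the median was 0.03. Gpx2 fell, none rose, and 1 call in 18 stands beside 1.23% of all genes. Gpx2, the gastrointestinal glutathione peroxidase, was at 1737 and 1620 in WR and at 896 and 872 in SeW, a 1.9-fold fall (log2 -0.92, SE 0.18, adjusted p 0.0479). TW, at 1755 and 2520, and DSW1200, at 2102 and 1768, all lay above SeW.

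Gpx4, which spares membranes from lipid peroxides, was lower on both SeW arrays without passing, at 1220 and 1394 in WR and 971 and 987 in SeW (log2 -0.41, SE 0.18, adjusted p 0.286). Gpx1, the cytosolic enzyme, was at 339 and 282 in WR and at 254 and 275 in SeW (log2 -0.23, SE 0.20, adjusted p 0.635). Gpx3, the secreted one, was at 51.3 and 41.6 in WR and at 33.8 and 26.9 in SeW (adjusted p 0.229). These 4 peroxidases had lower values on both SeW arrays after quantile normalization, as had 30% of all tested genes, and 1 of them was called. On the values as deposited, where the median gene was at 0.52, Gpx1 was at 0.42 and Gpx4 at 0.21. Selenop, the selenium carrier of plasma, was at 4592 and 3433 in WR and at 4163 and 4006 in SeW, a difference of 0.04 with a 95% interval from -0.53 to 0.61.

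Thioredoxin reductases keep thioredoxin reduced. Txnrd1, the cytosolic form, which the study also followed as a protein, was at 430 and 330 in WR and at 483 and 587 in SeW (log2 0.50, SE 0.19, p 0.0277 in limma, adjusted p 0.236). The groups did not overlap, and TW, at 550 and 679, overlapped SeW and lay above WR. Txnrd2, the mitochondrial form, was at 17.9 and 30.1 in WR and at 26.5 and 24.5 in SeW, a difference of 0.14 with a 95% interval from -0.56 to 0.83.

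Of 34 tested antioxidant enzyme genes, 13 lay above WR and 21 below, and the median was -0.04, as for all genes. Gpx2 fell and none rose, beside 0.67% and 0.562% of all tested genes. Gsr, glutathione reductase, was at 46.9 and 21.9 in WR and at 41.4 and 62.7 in SeW (log2 0.67, SE 0.38, adjusted p 0.429). Sod1, the cytosolic superoxide dismutase, was at 767 and 872 in WR and at 964 and 844 in SeW (adjusted p 0.761). Txnip, which binds and inhibits thioredoxin, was at 641 and 645 in WR and at 470 and 789 in SeW (adjusted p 0.9). In these 3 the groups overlapped.

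Metallothioneins bind zinc and copper and take up radicals. Mt1 was at 97.7 and 69.9 in WR and at 31.3 and 43.4 in SeW (log2 -1.17, SE 0.31, adjusted p 0.115), below all other arrays, the highest being TW at 190. Mt2A was at 221 and 161 in WR and at 110 and 222 in SeW (adjusted p 0.866). No metallothionein or zinc carrier of 19 tested passed in limma, and 5 had an unadjusted p under 0.05 beside 16.5% of all genes. The study also listed oxidative stress genes, up and down together, from PCR arrays that set selenium water against tap water. Of the 40 of them tested here, 18 lay above WR and the median was -0.02. Gpx2 fell and none rose, beside 0.67% and 0.562% of all tested genes. Whether that PCR used the same samples is not given in the sources used here, so the list is not taken as independent evidence.

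**Figure D4:**
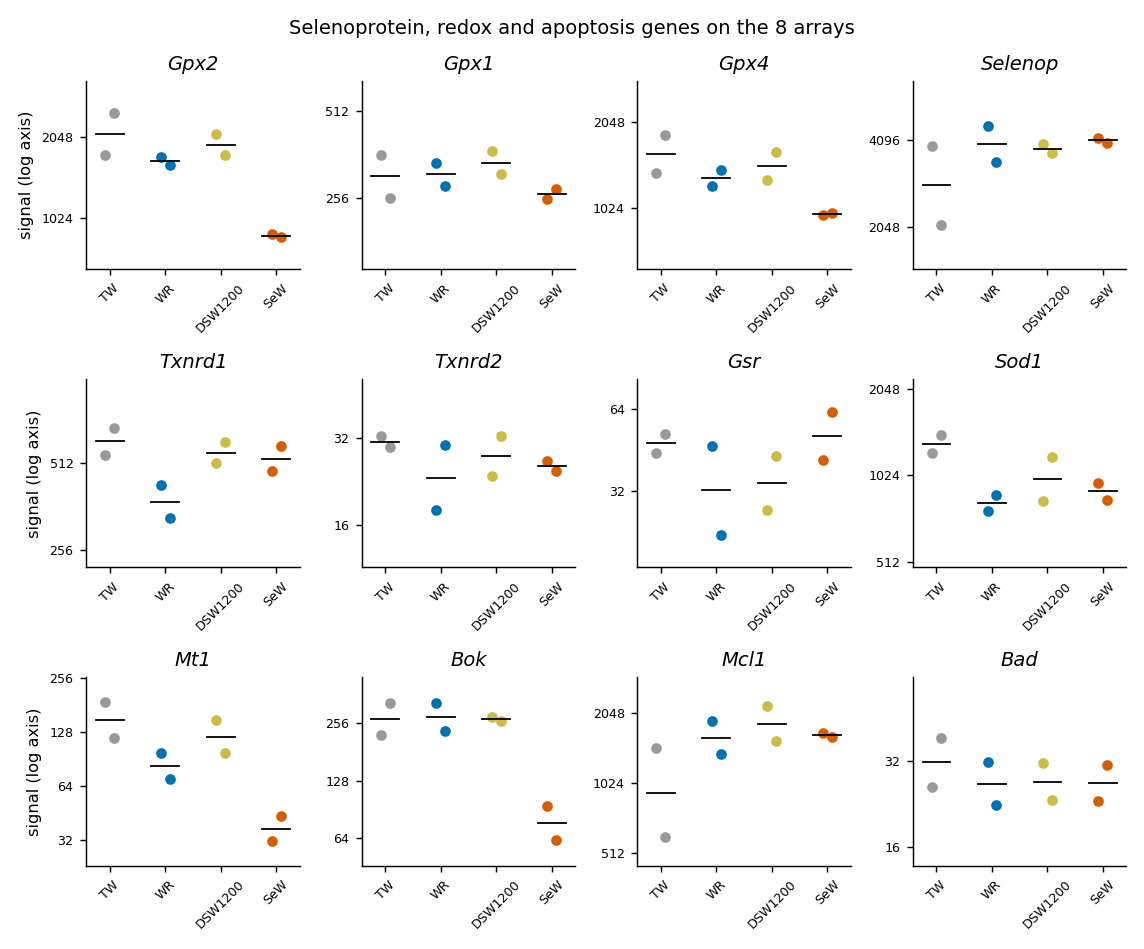
Signal of 12 selenoprotein, redox and apoptosis genes on a log axis, 1 point per array in 4 groups, with a bar at the mean of the log2 values. Gpx2, Gpx4, Mt1 and Bok are lowest on the SeW arrays, Txnrd1 is lowest in WR, and the other genes overlap between groups or differ by less.

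Among the tested apoptosis genes 1 passed, beside 1.23% of all tested genes. Of 32 tested pro-apoptotic genes, Bok fell, none rose, and the median was -0.02. Bok, a relative of Bax and Bak that permeabilises mitochondria, was at 327 and 234 in WR and at 94.7 and 62.7 in SeW, a 3.59-fold fall (log2 -1.84, SE 0.26, adjusted p 0.0226). The TW and DSW1200 arrays lay between 223 and 325, with WR, and a second, dimmer probe set was lower by 0.53. Of 19 tested anti-apoptotic genes none passed in limma, 2 had an unadjusted p under 0.05 beside 16.5% of all genes, and the median was -0.07.

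Bad, which neutralises Bcl2, was at 31.6 and 22.4 in WR and at 23.1 and 30.8 in SeW, a difference of 0.00 with a 95% interval from -0.70 to 0.71. Mcl1, a short-lived guardian of mitochondria, was at 1898 and 1362 in WR and at 1677 and 1620 in SeW, a difference of 0.04 with an interval from -0.74 to 0.81. At this spread, changes up to about the ends of these intervals were not excluded. Bcl2 was too dim to be tested, with values between 0.325 and 5.39 on the 4 arrays. Bax was not among the genes with a probe set of a single gene symbol, so it was not tested.

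Other pathways had single calls or none. Of 32 tested genes of the unfolded protein and heat shock response, 25 lay above WR and 22 without overlap (24.2% of all genes), with a median of 0.33. None passed in limma, and 12 had an unadjusted p under 0.05 beside 16.5% of all genes. Dnajb9, a chaperone of the endoplasmic reticulum, was at 222 and 203 in WR and at 350 and 403 in SeW (adjusted p 0.0949), and Herpud1, which helps clear misfolded proteins, at 244 and 269 and at 337 and 604 (adjusted p 0.152). Of 40 tested cytosolic ribosomal protein genes, 32 lay below WR with a median of -0.21, and 1 fell, beside 0.67% of all tested genes. This was Rpsa, at 1602 and 1710 in WR and 1032 and 965 in SeW. Ribosomal genes have many processed copies, and 1 other Rpsa probe set was level (log2 -0.02).

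Of 19 cholesterol synthesis genes, 13 lay below WR with a median of -0.26, and 1 fell, beside 0.67% of all tested genes. This was Pmvk, a kinase of the mevalonate pathway, which fell 2.67-fold, from 165 and 140 to 57.2 and 56.7 (log2 -1.42, SE 0.19, adjusted p 0.0194). TW and DSW1200 lay between 144 and 185. The 73 tested subunits of oxidative phosphorylation had a median of 0.03 and no call in limma (12 with an unadjusted p under 0.05, about the 16.5% of all genes). The 28 cell cycle genes and the 35 proteasome genes had medians of 0.04 and -0.03. Each of these lists had no call in limma and 1 unadjusted p under 0.05, beside 16.5% of all genes.

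**Figure D5:**
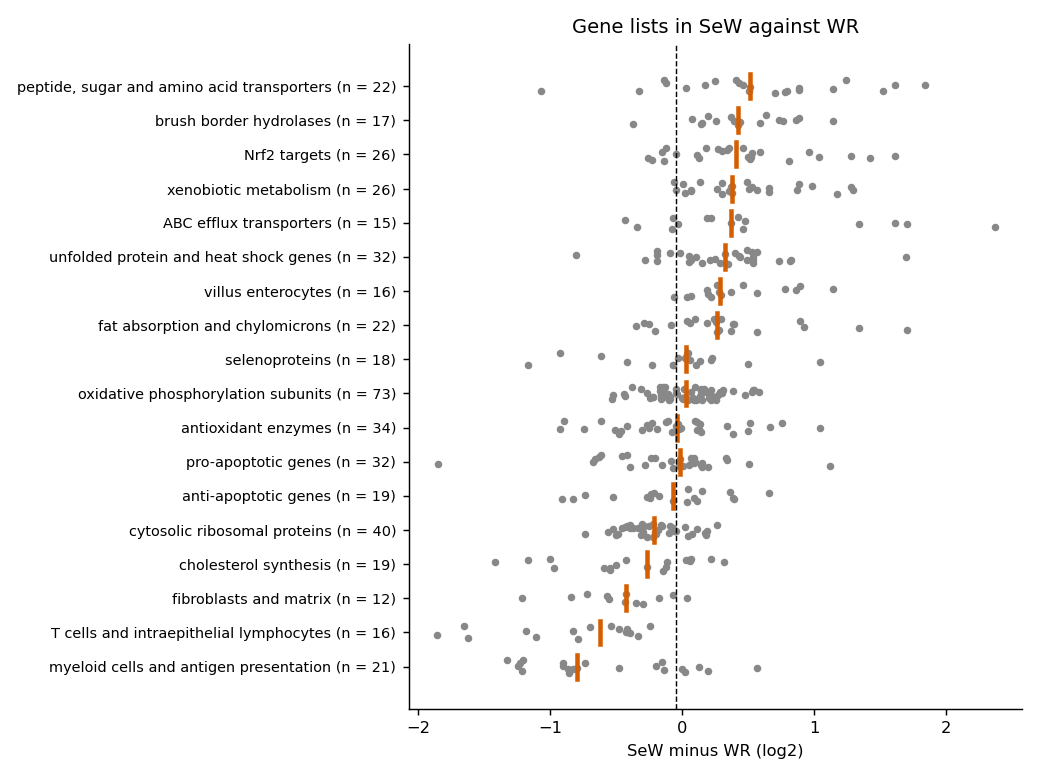
SeW minus WR (log2) of the tested members of 18 gene lists, 1 grey point per gene, with an orange bar at the median of the list and a dashed line at the median of all tested genes (-0.04). Carriers and brush border genes lie to the right (medians 0.51 and 0.42), lymphocyte and myeloid genes to the left (-0.62 and -0.80), and selenoprotein, antioxidant and apoptosis genes on the line.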

How the data were processed

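Affymetrix Rat Genome 230 2.0 arrays were read from the deposited table of MAS5 signal, an intensity on a linear scale that the authors had made from the scans; the scaling target is not given in the sources used here. All 31099 probe sets of the 8 arrays were quantile normalized, as in the study's methods, floored at 1 and put on the log2 scale. Probe sets were named through RefSeq. The brightest probe set stood for a gene, and genes were tested where their average exceeded 6.69, the midpoint of the signals over probe sets. Group was the only term in limma (R 4.3.3, limma 3.58.1), with an intensity trend, 4 residual degrees of freedom and Benjamini-Hochberg adjustment. The fit was tested on simulated data. A single gene, 2 arrays against 2, cannot go below an exact two-sided permutation p of 0.333. Named were the 15 largest rises and falls, up to 6 members a list by p, and 15 genes of the study. Members and lists were chosen with earlier results of these data known. The number of arrays limits the precision. Each alternative changed 1 step.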

Additional observations from a re-analysis of the deposited data

How the results depend on the processing

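The number of genes past the threshold, 114, moved by less than 1.5 times with a stricter filter (145), an offset of 32 (130) and every probe set tested on its own (129). It was 973 on the values as deposited, 37 with median centring, 18 with the mean of the probe sets, 1 without a filter, 1 without an intensity trend and 0 with the β-actin ratio as a covariate. With only the 4 SeW and WR arrays 446 genes passed, among them all 114. Leaving out 1 array gave between 1 and 212. Of the 114 genes, 111 passed under the stricter filter, where 111 were tested, 109 with the offset and 16 with the mean of the probe sets, under which 4 turned direction. The cause was not tested. The count of genes that changed 2-fold without overlap, 421, was 1305 on the values as deposited, 1352 without a filter, 188 under the stricter filter and 70 with the offset, and the share that was higher went from 45.8% to 96.2% on the values as deposited.

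Same-numbered arrays deviated together by a correlation of -0.03 between WR and SeW. With 2 arrays a group this value cannot exclude that the replicate numbers pair the samples. With the replicate block 19 genes passed, all among the 114.

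None of the named genes past the threshold turned direction under any alternative, which for left-out arrays was fixed in advance. Among those that did not pass, on the values as deposited Gpx1 was at 0.42, Gpx4 at 0.21, Txnip at 0.59 and Mt2A at 0.37, and with median centring Gpx1 was at 0.07, Txnip at 0.24 and Mt2A at 0.02. With the mean of the probe sets Clock was at 0.29 and Selenop at -0.02. With the β-actin covariate Clock was at 0.31, Slc2a5 at -0.27, Abcc2 at -0.74, Lyz2 at 0.02, Gpx1 at 0.04, Txnrd1 at -0.50, Sod1 at -0.11, Gsr at -1.51, Mt2A at 0.98 and Bad at -0.83. Leaving out 1 array, Jchain ranged from -4.40 to 0.04 (SeW replicate 2 and 1), Txnip from -0.45 to 0.30 and Mt2A from -0.78 to 0.23 (the same arrays). Txnrd2 ranged from -0.24 to 0.51 and Selenop from -0.17 to 0.25, Bad from -0.24 to 0.25 and Mcl1 from -0.20 to 0.27, over the 2 WR arrays in turn, and Bad was at -0.20 without SeW replicate 2. All are log2 differences, SeW minus WR.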

Other observations

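A set of genes of nuclear speckles and RNA processing stood among the rises, a grouping made after the values were seen and given without a test. Clk1, a kinase of splicing factors, was at 224 and 229 in WR and at 594 and 506 in SeW (log2 1.28, SE 0.22, adjusted p 0.0421 in limma). The cyclins of the speckle, Ccnl1 and Ccnl2, rose by 0.86 and 1.01 on the log2 scale, and Rsrp1, an arginine and serine rich protein, was at 1086 and 1224 in WR and at 2236 and 1914 in SeW. Pspc1, a paraspeckle protein, was at 24.6 and 21.1 in WR and at 55.1 and 56.0 in SeW, but a second probe set of it was lower by 0.30. The β-actin ratio was lower in SeW. With it as a covariate none of the 5 passed, and Clk1 was at 1.09, Ccnl1 at 0.78, Ccnl2 at 1.31, Rsrp1 at 1.60 and Pspc1 at 0.90.

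Probe sets of 1 gene did not always move together. Counting other probe sets with a mean over 20 in both groups, 15 of the 52 genes that rose had such a probe set, in 14 of them each went the same way, and in 9 at least 1 did so by 0.5 or more on the log2 scale. Of the 62 genes that fell, 16 had one; in 9 each went the same way, in 5 at least 1 did so by 0.5 or more, in 3 each went the other way or was level, and in 4 they were mixed. Grk6, a kinase of G protein-coupled receptors, was at 645 and 755 in WR and at 268 and 281 in SeW on the tested probe set, but another was level (log2 -0.09). Sp1, a general activator, fell by 0.93 on the tested probe set, and another of comparable signal was at -0.08. Tpm3, a tropomyosin, was at 1405 in WR and 762 in SeW on average on the tested probe set and at 732 and 765 on another. Of its dimmer probe sets, 1 was lower by 1.09 on the log2 scale and others were higher, by up to 0.91. The tested Tpm3 probe set was at -0.33 with the β-actin covariate. For Grk6 and Sp1 the call rests on 1 probe set, and those of Tpm3 were mixed. Why the probe sets differ was not tested.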
